A study of Mus musculus with 52 samples.

Results

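The liver of mice 4 days after removal of 2/3 of the organ was compared with the liver of mice that had no operation. The comparison used 9 of the 52 arrays of a regeneration time course, the 4 arrays titled as 4 days (replicates 1 to 4) and the 5 titled as control (replicates 1 to 5), and the arrays were chosen by these titles alone. All animals were C57Bl6/N mice labelled male, 8 to 12 weeks old and on a standard diet, and the controls are labelled as having no treatment, so no sham operation was included. Total liver RNA was hybridized to Affymetrix mouse genome-wide arrays, with 1 array per sample, and values are log2 expression levels. No label says whether replicates are separate mice, and the p-values therefore reflect the spread among these samples, which may be partly technical. The other 43 arrays cover 10 further times from 1 hour to 3 months and entered the same model, where they add to the estimate of the spread.

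After partial hepatectomy the remaining hepatocytes leave quiescence, replicate their DNA and divide, and stellate, endothelial and bile duct cells follow. Early on, cytokines such as interleukin-6 drive hepatocytes to make acute phase proteins, and growth factors carry the cells through the cell cycle. Liver mass is largely restored within the first week in mice, while new vessels and matrix are laid down around the new hepatocytes. The division programme is read from cyclins, the MCM helicase and mitotic kinases, the injury response from secreted acute phase proteins and metallothioneins, and adult identity from P450 enzymes and sex-biased genes.

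Of 18194 genes measured, 5974 (32.8%) differed between 4 days and control at an adjusted p under 0.05 in limma, and this is what "called" means below. Higher levels were called for 3414 genes (18.8%) and lower levels for 2560 (14.1%). Every list count below is to be read against these shares. A change of at least 2-fold was called for 1097 genes (6.03%), 966 higher (5.31%) and 131 lower (0.72%). The groups did not overlap for 5091 genes (28%). Genes called higher made up 57.1% of the calls, 74.1% after each array was centred on its median, which moved the median change of all genes to 0.11, and 45.3% after quantile normalization, so the balance between higher and lower depends on the scaling.

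Quality measures also differed between the groups. Spiked hybridization control transcripts read 10.85 ± 0.29 (SD, n = 5) in control and 9.86 ± 0.11 (n = 4) at 4 days on the log2 scale, poly-A spike controls read 6.88 ± 0.43 and 4.89 ± 0.19, and neither overlapped between groups. When the hybridization controls entered the model as a covariate, 123 genes were called (0.676%), 0.357% of all genes higher and 0.319% lower. With the poly-A controls in their place the calls were 1078 (5.93%), 3.99% higher and 1.93% lower. Standard errors of the named genes grew 1.48 times under the first covariate, and 22 of 118 named calls were kept, among them Lcn2, Mt1, Mt2, Prtn3, Scd2, Hsd3b5 and Sult1e1. The 96 named calls that ended kept a median of 73.3% of their change, with a range from -41.6% to 157.3%. Medians of whole gene lists moved in both directions under this covariate. Mitosis went from 1.82 to 0.52 and DNA replication from 1.01 to -0.10. Acute phase proteins went from 1.02 to 1.36 and male-biased genes from -1.13 to -1.95. With the poly-A covariate these 4 medians were 1.47, 0.90, 0.50 and -0.13. Because the spike controls and the groups move together, their part in the changes cannot be told apart. List counts under both spike covariates are given with the lists. The hepatocyte identity of the tissue was clear in each array, with albumin (Alb) between 13.93 and 14.14.

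**Figure D1:**
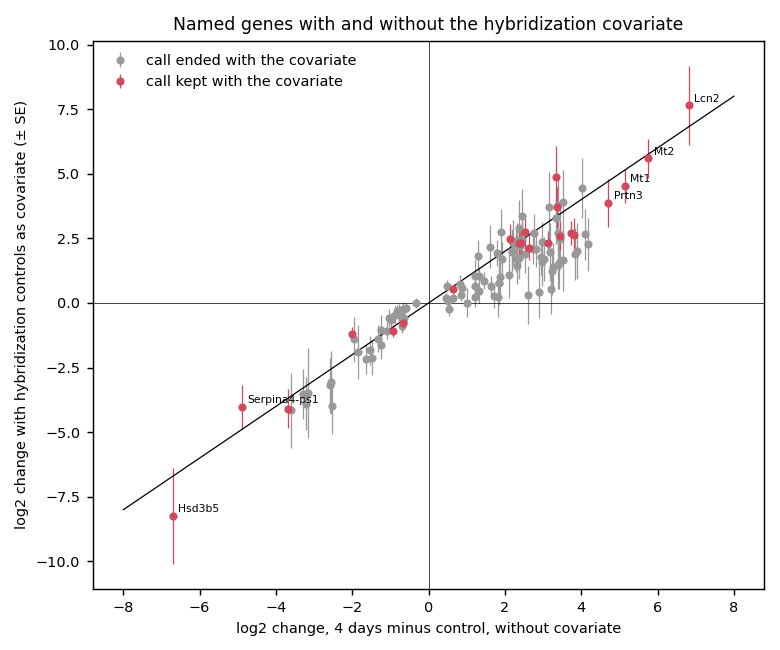
Log2 change between 4 days and control for each named gene called without a covariate (horizontal) against its change with the hybridization controls as a covariate (vertical, bars ± SE); the line marks equal values. Red points are the 22 genes whose call was kept, with Lcn2, Mt2, Mt1 and Prtn3 at the top right and Hsd3b5 at the bottom left.

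The 4 arrays taken 4 days after the operation were not alike. Over the 2000 most variable genes, after the mean of all arrays was removed, the controls correlated with the mean of the other controls at 0.82 to 0.91. For 4-day replicates 1, 2 and 3 the same figure was 0.55, 0.51 and 0.51, and replicate 4 reached 0.20. Replicates 1 and 2 lay nearer to the 3-day mean (0.60 and 0.70), and replicate 4 nearer to the 1-week mean (0.29). Leaving out 4-day replicate 2 cut the genes called to 4034, and 3934 of these were among the 5974. Where a list's count of 2 or more moves by over 1.5 times without an array, that count is given. Genes are read from their brightest probe set. Other sets are given for some genes only, and where none is given they may differ.

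Genes of mitosis had the most members called higher at 4 days of all lists. These genes encode the cyclins, kinases, spindle and cytokinesis proteins that act after DNA replication. Of 35 measured members 26 were called higher and 2 lower, against 18.8% and 14.1% of all genes, with a median change of 1.82 for the list and -0.00 for all genes. Without 4-day replicate 2 the count higher fell to 17, and with the poly-A and hybridization covariates it was 10 and 0.

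Promoters of such genes often carry a cell cycle homology region, the element TTTGAA, and CCAAT boxes, which bind the DREAM and MuvB complexes and NF-Y. Windows from 250 bases before to 50 after the start are shown for 3 of the most raised genes, from the RefSeq table of GRCm38.p6, 5′ to 3′ on the gene's strand, because matches to both elements stand in each. Capitals mark TTTGAA and CCAAT or their reverse complements, and overlapping matches were counted separately. Ccnb2 lies on the minus strand at chr9:70421505-70421804, Cdk1 on the minus strand at chr10:69352863-69353162 and Cdc20 on the minus strand at chr4:118437294-118437593.
Ccnb2: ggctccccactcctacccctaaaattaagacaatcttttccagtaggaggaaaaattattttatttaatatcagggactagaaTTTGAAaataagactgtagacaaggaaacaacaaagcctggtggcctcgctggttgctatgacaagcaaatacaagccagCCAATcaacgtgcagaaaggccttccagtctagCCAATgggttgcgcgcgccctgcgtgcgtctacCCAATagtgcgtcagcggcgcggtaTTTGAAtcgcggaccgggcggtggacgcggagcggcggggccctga
Cdk1: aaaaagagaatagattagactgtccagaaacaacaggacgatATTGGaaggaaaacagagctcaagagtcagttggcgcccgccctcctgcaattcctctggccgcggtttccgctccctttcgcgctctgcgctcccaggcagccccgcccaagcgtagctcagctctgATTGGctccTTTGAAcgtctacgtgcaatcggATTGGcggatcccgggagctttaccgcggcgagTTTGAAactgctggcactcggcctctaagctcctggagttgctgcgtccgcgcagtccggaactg
Cdc20: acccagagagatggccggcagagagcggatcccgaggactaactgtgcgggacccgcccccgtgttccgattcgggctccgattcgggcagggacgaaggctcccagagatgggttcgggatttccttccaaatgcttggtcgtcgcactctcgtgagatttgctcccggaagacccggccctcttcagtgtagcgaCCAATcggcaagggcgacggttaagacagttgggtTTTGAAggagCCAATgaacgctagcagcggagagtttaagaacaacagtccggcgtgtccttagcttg

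The Ccnb2 window held 2 matches to TTTGAA and 3 to CCAAT, that of Cdk1 held 2 and 3, and that of Cdc20 held 1 and 2. Both elements were found in 21 of 31 promoter windows of the mitosis list (67.7%) and in 6.95% of the 32851 windows of all genes. TTTGAA alone was in 24 of the 31 (77.4%, against 17.9% of all windows) and CCAAT in 24 (77.4%, against 37.4%). For the replication list TTTGAA was in 4 of 32 windows (12.5%) and CCAAT in 19 (59.4%). These are matches of letters, and no binding was measured.

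Ccnb2, the cyclin B2 that partners Cdk1 at entry into mitosis, read 3.48, 2.76, 3.00, 2.69 and 3.63 in control replicates 1 to 5 and 7.65, 9.14, 7.36 and 5.04 in 4-day replicates 1 to 4. Every 4-day array lay above every control, replicate 2 highest and replicate 4 lowest. The change was 4.19 ± 0.72 (SE, adjusted p = 2.7e-05). Mki67, the proliferation antigen Ki-67, was 3.15 to 3.61 in the controls and 7.02, 8.84, 7.33 and 5.78 at 4 days, a change of 3.90 ± 0.76 (adjusted p = 0.00014). The 4 arrays kept the same highest and lowest member as for Ccnb2.

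The kinase Cdk1 was 4.33 to 4.86 in the controls and 7.57, 9.54, 7.36 and 6.75 at 4 days. Birc5, the survivin subunit of the chromosomal passenger complex, and Cdc20, the activator of the anaphase-promoting complex, rose by 3.82 ± 0.72 and 3.51 ± 0.82. Ube2c, the ubiquitin-conjugating enzyme of that complex, rose by 3.42 ± 0.71, Top2a, which untangles replicated DNA, by 3.27 ± 0.65, and cyclin A2 (Ccna2) by 2.96 ± 0.65. In each of these genes 4-day replicate 2 was the highest array and replicate 4 the lowest. The kinase Aurka rose by 1.82 ± 0.55 and was no longer called without replicate 2 (change 1.15).

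The 2 members called lower rest on the choice of probe set. Foxm1, a transcription factor that drives mitotic genes, was 5.08 to 5.45 in the controls and 4.48 to 4.88 at 4 days, and its 4 probe sets ranged from -0.86 to 0.30 in change, with 2 called lower and none higher. Tpx2, a spindle assembly factor, changed by -0.77 with its brightest probe set, while the 4 sets ranged up to 1.35, with 2 called higher and 1 lower, and the mean of its sets gave 0.32. Neither gene's direction can be read from its brightest probe set alone.

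DNA replication genes rose as well. Of 33 measured members 17 were called higher and 1 lower, with a median of 1.01, and 8 were called higher without 4-day replicate 2 and 0 with either spike covariate. Mcm6, a subunit of the helicase that opens DNA at origins, was 3.78, 4.24, 4.36, 4.83 and 4.42 in the controls and 7.19, 8.50, 6.73 and 7.69 at 4 days. The groups did not overlap, and unlike the mitotic genes the lowest array was replicate 3 and not replicate 4. The change was 3.20 ± 0.74 (adjusted p = 0.00091), and 0.54 with the hybridization covariate.

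The helicase subunit Mcm5 rose by 2.90 ± 0.75 and Rrm2, the small subunit of ribonucleotide reductase, by 2.61 ± 0.81, a call that ended without 4-day replicate 2 (2.24). The sliding clamp Pcna was 6.98 to 7.94 in the controls and 9.33, 10.22, 8.70 and 9.17 at 4 days. Fen1, the flap endonuclease, was called lower (-0.88 ± 0.23) by its brighter probe set, and its other set gave 1.15, so the gene has no single direction here.

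Cyclin D1 (Ccnd1), which binds Cdk4 in G1, was 6.17, 6.65, 6.79, 6.49 and 7.12 in the controls and 9.75, 10.29, 9.59 and 9.004 at 4 days, without overlap. It rose by 3.02 ± 0.59 (adjusted p = 0.00015), and all 3 of its probe sets were called higher. It had the largest change of the G1 list, in which 5 of 17 members were called higher and none lower (29.4% called, against 32.8% of all genes). The count higher was 2 without 4-day replicate 1, replicate 2 or control replicate 3, and 3 without control replicate 1 or 2. With the poly-A and hybridization covariates 1 and 0 were called. The other called members were Skp2 (1.01), Tfdp1 (0.88), Cdk4 (0.52, or -0.22 with the hybridization covariate) and E2f3 (0.50). The calls of Skp2, Cdk4 and E2f3 ended in 8, 5 and 4 of 9 analyses with 1 array left out. Other probe sets of Cdk4 were also called higher (0.93 and 0.67). For Skp2 another set was called higher (0.91) and another lower (-0.35). E2f1, a main activator of S-phase genes, changed by 0.16 and Myc by 0.67, and neither was called.

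Cdkn1a and Cdkn2c, inhibitors of the cycle, were called higher at the same time. Cdkn1a, the p21 inhibitor, was 4.54 to 5.66 in the controls and 7.13, 7.88, 6.35 and 7.92 at 4 days, a rise of 2.21 ± 0.58 (adjusted p = 0.0032) that was 0.08 with the poly-A covariate. Replicates 2 and 4, the highest and lowest arrays for mitosis, were the highest for this gene. Cdkn2c, the p18 inhibitor of Cdk4 and Cdk6, rose by 1.85 ± 0.38. Of 19 listed inhibitors and p53 targets 8 were called higher, 1 was called lower and 10 were not called. The median was 0.36, and the shares of all genes called were 18.8% higher and 14.1% lower. With the poly-A covariate 2 were called higher and 1 lower, and with the hybridization controls none.

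**Figure D2:**
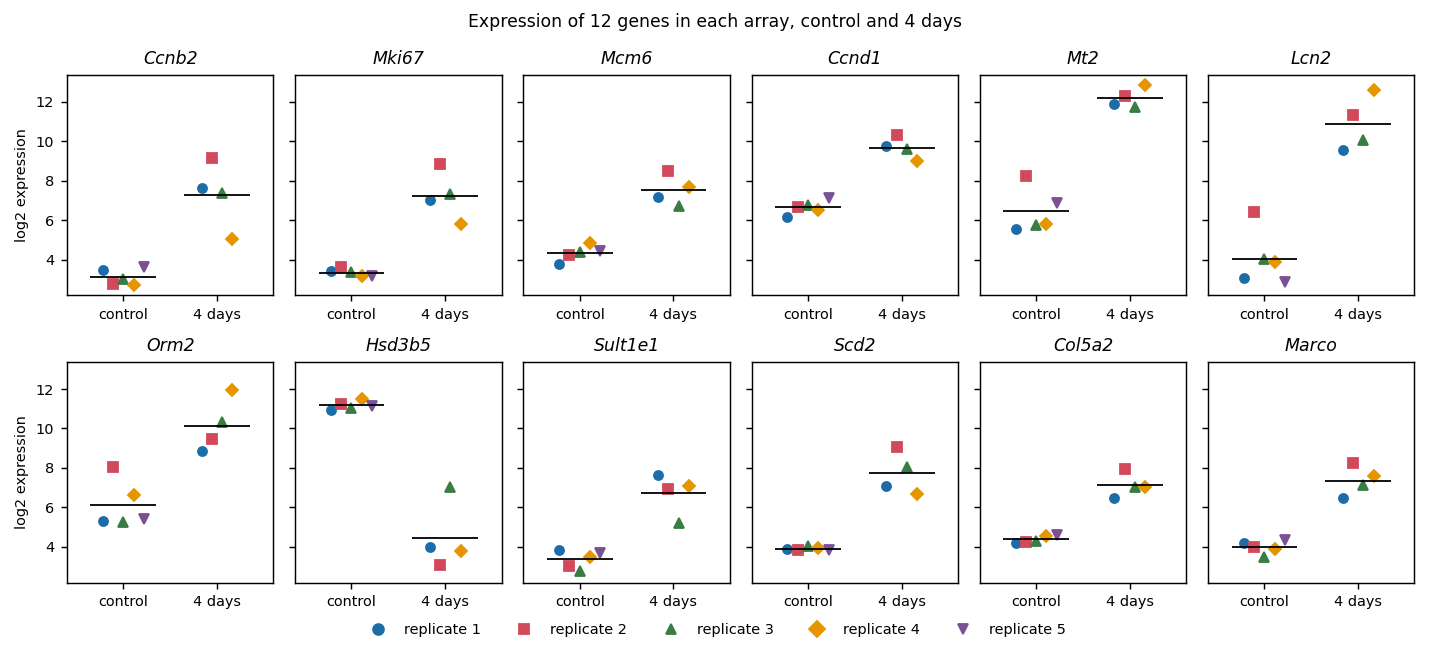
Log2 expression of 12 genes in each of the 5 control and 4 4-day arrays; each symbol is 1 array, coloured by replicate number, and bars are group means. Groups do not overlap in any panel, and 4-day replicate 4 is lowest for Ccnb2 and Mki67 but highest for Mt2, Lcn2 and Orm2.

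Metallothioneins and lipocalin 2 had the largest rises of all genes with separated groups. Mt2, a small protein that binds zinc and copper and is induced by zinc, glucocorticoids and interleukin-6, was 5.56, 8.25, 5.73, 5.82 and 6.86 in the controls and 11.87, 12.31, 11.75 and 12.87 at 4 days. Control replicate 2 was the highest control, and the 4-day arrays spanned little more than 1 log2 unit. The rise was 5.76 ± 0.50, a 54.1-fold difference of means (adjusted p = 4e-11). Its neighbour Mt1 was 6.55, 10.28, 7.07, 6.88 and 8.46 in the controls and 12.72 to 13.30 at 4 days, a rise of 5.14 ± 0.44.

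Metal response elements, the sites of the zinc-sensing factor MTF1, are read here as TGCGCNC or TGCACNC on either strand. The windows of both genes are shown because the pair rose together, and capitals mark these letters. Both lie on the plus strand, Mt1 at chr8:94178839-94179138 and Mt2 at chr8:94172368-94172667 (RefSeq, GRCm38.p6).
Mt1: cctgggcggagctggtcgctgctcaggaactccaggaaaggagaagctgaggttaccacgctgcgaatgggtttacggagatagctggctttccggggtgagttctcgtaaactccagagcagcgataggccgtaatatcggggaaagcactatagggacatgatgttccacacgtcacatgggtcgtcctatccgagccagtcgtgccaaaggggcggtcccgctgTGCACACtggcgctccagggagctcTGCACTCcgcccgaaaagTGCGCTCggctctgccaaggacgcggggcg
Mt2: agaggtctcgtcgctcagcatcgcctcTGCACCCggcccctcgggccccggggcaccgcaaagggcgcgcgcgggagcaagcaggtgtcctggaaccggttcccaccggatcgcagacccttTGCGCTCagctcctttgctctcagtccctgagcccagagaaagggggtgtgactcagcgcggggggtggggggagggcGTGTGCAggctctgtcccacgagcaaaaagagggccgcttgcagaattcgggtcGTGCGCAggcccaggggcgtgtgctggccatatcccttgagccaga

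The Mt1 window held 3 matches and the Mt2 window 4. At least 1 match was in 25.7% of the 32851 windows of all genes, and at least 3 were in 1.97%. The whole list of metallothioneins and NRF2 targets, this pair included, had 7 of 21 members called higher and none lower. That is 33.3% called, against 32.8% of all genes, with a median of 0.39. With the poly-A and hybridization covariates 3 and 2 of the whole list were called higher. The quinone reductase Nqo1 rose by 1.62 ± 0.30. Haem oxygenase (Hmox1) was 4.80 to 5.23 in the controls and 5.72, 6.57, 5.72 and 8.38 at 4 days, and its rise of 1.61 ± 0.56 was not called without replicate 2 (1.62) or replicate 4 (1.01).

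Lcn2, which binds bacterial siderophores and is secreted by injured liver, had the largest change of any separated gene. It was 3.06, 6.39, 4.05, 3.88 and 2.88 in the controls and 9.53, 11.31, 10.04 and 12.62 at 4 days. Control replicate 2 was again high, and the groups did not overlap. The rise was 6.82 ± 1.02, a 113-fold difference of means (adjusted p = 3.3e-06).

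Acute phase proteins, which hepatocytes secrete under cytokine drive, rose as a group: 18 of 26 were called higher and none lower, with a median of 1.02. Under the hybridization covariate 6 were called higher and under the poly-A covariate 3. Orm2, an orosomucoid, was 5.30, 8.04, 5.27, 6.65 and 5.42 in the controls and 8.86, 9.47, 10.33 and 11.94 at 4 days, a rise of 4.01 ± 0.77 (adjusted p = 0.00012). Serum amyloid A1 (Saa1) was 7.14, 11.97, 8.10, 8.44 and 7.40 in the controls and 10.66, 11.21, 12.97 and 13.72 at 4 days. There the groups overlapped, because control replicate 2 exceeded 4-day replicates 1 and 2, and the rise was 3.53 ± 0.84.

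The metalloreductase Steap4 rose by 2.51 ± 0.46, the pentraxin Apcs by 2.14 ± 0.40 and haptoglobin (Hp) by 0.49 ± 0.14 from a control level of 12.98 to 13.21. Hepcidin (Hamp), the hormone that blocks iron export, was 12.42 to 12.79 in the controls and 11.59, 10.48, 11.67 and 11.77 at 4 days. Those groups did not overlap, yet the change of -1.26 ± 0.53 missed the threshold (adjusted p = 0.065), while its other probe set was called lower (-1.47). The list's mean level was 9.14 to 10.35 in the controls and 10.43, 10.70, 10.89 and 11.85 at 4 days, so the array with the weakest mitotic signal, replicate 4, had the strongest acute phase signal.

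**Figure D3:**
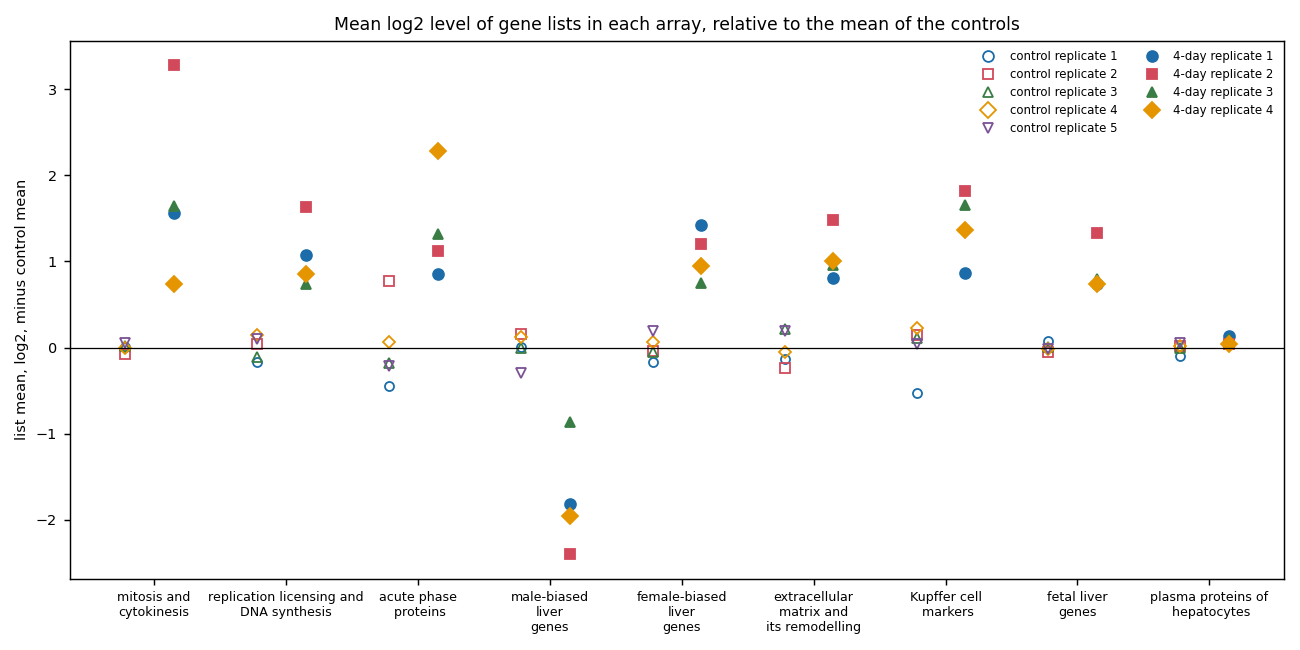
Mean log2 level of 9 gene lists in each array minus the mean of the 5 controls; open symbols are controls, filled symbols 4-day arrays, with colour and shape by replicate number. 4-day replicate 2 is highest for mitosis and lowest for male-biased genes, and replicate 4 is lowest for mitosis and highest for acute phase proteins.

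Genes that adult male liver expresses above female liver were lower at 4 days. Their male pattern depends on pulsed growth hormone acting through STAT5. Of 15 measured male-biased genes 6 were called lower and none higher, against 14.1% of all genes called lower, and their median change was -1.13. The count lower was 10 without 7 arrays doubted in earlier work on these data, 1 of them control replicate 1 and the others from 24 hours, 1 week and 4 weeks, and it was 1 with the hybridization and 0 with the poly-A covariate.

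Hsd3b5, a steroid reductase of male mouse liver, was 10.92, 11.22, 11.06, 11.50 and 11.13 in the controls and 3.98, 3.08, 7.04 and 3.77 at 4 days. The groups were far apart, with replicate 3 keeping the most. The change of -6.70 ± 1.25 was the lowest of all separated genes (adjusted p = 7.8e-05). Elovl3, a fatty acid elongase, was 11.36, 11.14, 11.07, 11.32 and 9.02 in the controls and 6.77, 5.88, 8.87 and 7.13 at 4 days, a change of -3.62 ± 0.96.

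The glucuronosyltransferase Ugt2b38 changed by -3.21 ± 0.69, the major urinary protein Mup10 by -2.58 ± 0.72 and the organic anion transporter Slco1a1 by -2.53 ± 0.74. The last was no longer called without 4-day replicate 2 (-2.06). Cyp4a12a, a fatty acid hydroxylase of male mice, changed by -3.17 ± 1.15, and this call ended without 4-day replicate 1, 2 or 4 or control replicate 1. In all these genes 4-day replicate 3 held the highest or the second highest level of its group. Members that were not called by their brightest probe set included Cyp2d9 (-0.45), Cyp7b1 (-1.14) and Nudt7 (-0.93), and another set of Cyp7b1 (-1.63) and of Nudt7 (-1.53) was called lower.

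Female-biased genes moved the other way, with 7 of 15 called higher, none lower and a median of 1.38; 1 was called higher under either spike covariate. Sult1e1, the oestrogen sulfotransferase, was 3.82, 3.04, 2.80, 3.47 and 3.71 in the controls and 7.63, 6.94, 5.20 and 7.07 at 4 days, without overlap. It rose by 3.34 ± 0.82 (adjusted p = 0.0018), and replicate 3, which kept the most male-biased expression, had the smallest rise. The steroid hydroxylase Cyp17a1 rose by 2.18 ± 0.55 and the thioesterase Acot3 by 1.85 ± 0.56, a call that ended without 4-day replicate 1. Prom1 was 4.80, 9.74, 5.05 and 5.64 at 4 days against 3.92 to 4.62 in the controls, so most of its change of 2.12 was in replicate 2, without which it was 0.97 and not called.

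Within the growth hormone axis itself, levels of Igf1, the main growth hormone target secreted by liver, were 11.25 to 11.61 in the controls and 11.50 to 11.66 at 4 days (change 0.16 ± 0.10, adjusted p = 0.24). The feedback inhibitor Cish was 7.22, 5.79, 5.33, 7.91 and 7.76 in the controls and 8.00 to 8.08 at 4 days, a rise of 1.22 ± 0.43 that was not called without 4-day replicate 2, control replicate 2 or control replicate 3. Bcl6, a repressor that supports the male pattern, was 5.94, 8.83, 8.82, 6.39 and 5.70 in the controls and 4.82, 4.34, 5.19 and 6.74 at 4 days, where the groups overlapped. Its change of -1.86 ± 0.69 was not called without 4-day replicate 1, 2 or 3 or control replicate 2 or 3. The oestrogen receptor Esr1 rose by 1.23 ± 0.29 and changed by 0.22, which was not called, with the hybridization covariate. Igfbp1, an insulin-like growth factor binding protein, was 7.86 to 11.22 in the controls and 10.63, 10.14, 8.65 and 13.16 at 4 days, with overlap and no call (0.67 ± 0.77). Of 16 members of this list 2 were called higher and 4 lower (37.5% called, against 32.8% of all genes). Without control replicate 3, 1 was higher, and the lower count was 1 without 4-day replicate 2 and 2 without 4-day replicate 4 or control replicate 1, 3 or 5. With the poly-A covariate 1 was called higher and 1 lower, and with the hybridization covariate none.

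**Figure D4:**
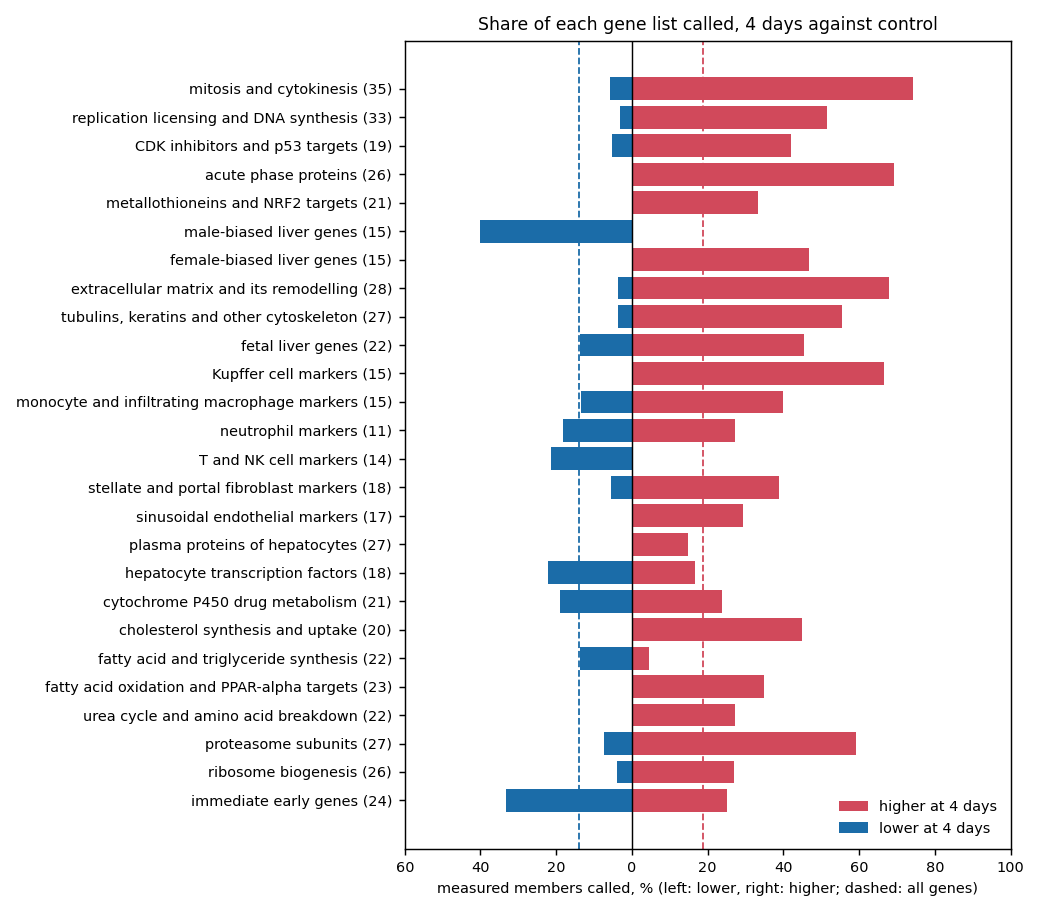
Percentage of the measured members of 26 gene lists called higher (right, red) or lower (left, blue) at 4 days, with the number of measured members in brackets; dashed lines mark the 18.8% and 14.1% of all genes. Mitosis, acute phase, matrix and Kupffer cell lists extend farthest to the right and male-biased genes farthest to the left.

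Several genes of fetal and regenerating liver rose from near the floor of the arrays. Scd2, the stearoyl-CoA desaturase of fetal liver, was 3.82 to 4.02 in the controls and 7.09, 9.08, 8.05 and 6.66 at 4 days, a rise of 3.82 ± 0.47 (adjusted p = 1.7e-07). Of its 3 probe sets 2 were called higher and 1 lower (-0.37). Alpha-fetoprotein (Afp) was 3.07, 3.12, 2.83, 3.94 and 2.95 in the controls and 6.79, 6.88, 6.54 and 6.09 at 4 days, a rise of 3.39 ± 0.48. Its 5 probe sets ranged from -0.32 to 3.39, with 3 called higher and 1 lower. Neither gene's groups overlapped, and the 4 arrays were closer together for Afp than for Scd2.

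The trypsin inhibitor Spink1 rose by 3.12 ± 0.32, the trefoil peptide Tff3 by 2.98 ± 0.50 and the surface protein Ly6d by 2.52 ± 0.51. Lipoprotein lipase (Lpl), which adult hepatocytes hardly express, was 7.25 to 8.23 in the controls and 10.10, 10.95, 10.96 and 10.87 at 4 days (2.94 ± 0.48). Igf2 changed by -0.10 and Gpc3 by 0.38, and neither was called, though the other probe set of Igf2 was called lower (-0.62). Of 22 measured members 10 were called higher and 3 lower, with a median of 0.41; without 4-day replicate 2, 5 were called higher, and 1 was called lower without that array, control replicate 1 or the 7 doubted arrays. With the hybridization and poly-A covariates 2 and 5 were called higher and none lower.

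Matrix genes made by stellate cells and fibroblasts rose broadly. Of 28 measured members 19 were called higher and 1 lower, with a median of 0.96, and 4 and 12 were called higher with the hybridization and poly-A covariates. Col5a2, a fibrillar collagen chain, was 4.22, 4.25, 4.32, 4.54 and 4.60 in the controls and 6.49, 7.96, 7.03 and 7.05 at 4 days, a rise of 2.75 ± 0.38 (adjusted p = 1e-06). Lumican (Lum), a proteoglycan of collagen fibrils, was 4.81 to 6.45 in the controls and 8.28 to 8.96 at 4 days (2.64 ± 0.33). Groups did not overlap for either gene.

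Basement membrane genes moved with them: Col4a1 rose by 2.37 ± 0.29 and nidogen (Nid1) by 2.43 ± 0.39. Interstitial collagens followed with Col1a2 at 2.28 ± 0.42, Col3a1 at 2.19 ± 0.50 and Col1a1 at 1.30 ± 0.41, the last not called without 4-day replicate 1. The gelatinase Mmp9 was the member called lower (-0.83 ± 0.18), from 4.09 to 4.62 in the controls to 3.01 to 3.92, a level at which probe sets carry little signal. Smoc2, a matricellular protein, rose by 3.45 ± 0.39.

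Among 18 markers of stellate cells and portal fibroblasts, the collagens Col1a1 and Col3a1 included, 7 were called higher and 1 lower, 3 higher without 4-day replicate 2, and 2 and 0 higher with the poly-A and hybridization covariates. Acta2, the smooth muscle actin of activated cells, changed by 0.57, Lrat by 0.23 and Des by -0.09, and none of the 3 was called, though the other probe set of Des was called lower (-0.54). Ecm1, an inhibitor of latent TGF-beta activation, was lower (-1.10 ± 0.22), at 8.06 to 9.02 in the controls and 7.02 to 7.88 at 4 days. In bulk tissue, more cells of a type and more RNA per cell cannot be told apart, here and in the cell type lists that follow.

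The cytoskeleton list had 15 of 27 members called higher and 1 lower, with a median of 0.65, and 9 and 1 called higher with the poly-A and hybridization covariates. Stathmin (Stmn1), a microtubule destabiliser of dividing cells, was 6.26 to 6.51 in the controls and 9.79, 11.13, 9.92 and 8.27 at 4 days, with replicate 2 highest and replicate 4 lowest as for the mitotic genes. Annexin A2 (Anxa2) rose by 2.30 ± 0.35, S100a6 by 2.31 ± 0.43 and vimentin (Vim), the intermediate filament of mesenchymal cells, by 1.80 ± 0.33. The tubulin Tuba4a was lower, at 11.86 to 12.39 in the controls and 10.99 to 11.61 at 4 days (-0.93 ± 0.16). Tubb2b lay near the floor, at 1.86 to 2.38 against 1.95 to 3.08, and its call (0.45) ended without 4-day replicate 2 or 4 or control replicate 1.

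Kupffer cell genes, which mark the resident macrophages of the liver, were higher as a group. Of 15 members 10 were called higher and none lower, with a median of 1.33, and 8 and 1 were called higher with the poly-A and hybridization covariates. The scavenger receptor Marco was 4.22, 3.97, 3.51, 3.91 and 4.37 in the controls and 6.48, 8.25, 7.12 and 7.57 at 4 days, a rise of 3.36 ± 0.53 (adjusted p = 7.5e-06). Its groups did not overlap, and replicate 1 was the lowest of the 4-day arrays, as for the list as a whole (5.87, 6.82, 6.65 and 6.36, against 4.47 to 5.22 in the controls).

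The complement subunit C1qb rose by 2.45 ± 0.49, the complement receptor Vsig4 by 2.38 ± 0.54, Cd5l by 2.31 ± 0.47 and the Kupffer cell lectin Clec4f by 1.22 ± 0.33. Adgre1, the F4/80 antigen, changed by 0.48 and Cd68 by 0.89, and neither was called. Macrophage genes shared with recruited cells were led by galectin 3 (Lgals3, 2.82 ± 0.48) and lysozyme (Lyz2, 2.40 ± 0.50), with 6 of 15 called higher and 2 lower (3 and 0 higher, and none lower, with the poly-A and hybridization covariates). The lower count was 0 without 4-day replicate 1 or control replicate 1 and 1 without 4-day replicate 2 or 4, control replicate 2, 3, 4 or 5, or the 7 doubted arrays. The monocyte receptor Ccr2 was among the lower genes, with a change of -0.34 ± 0.13 and overlapping groups, a call that ended in 8 of 9 analyses with 1 array left out.

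Neutrophil markers did not move as a group. Prtn3, proteinase 3, was 4.23, 4.70, 3.95, 4.53 and 4.01 in the controls and 8.34 to 9.88 at 4 days, without overlap, a rise of 4.71 ± 0.63 (adjusted p = 5.4e-07). S100a8 rose by 3.16 ± 0.90 and S100a9 by 2.36 ± 0.72, both with replicates 2 and 4 highest, and the second was not called without replicate 4 (1.95). The neutrophil elastase Elane changed by -0.68 ± 0.18, and the granule genes Camp (-0.14) and Ngp (-0.47) were not called, with levels of 3.36 to 4.54 in all 9 arrays. In all, 3 of 11 members were called higher and 2 lower, 1 lower without 4-day replicate 1 or 2 or control replicate 1, 3 or 5, and 1 higher and none lower under either covariate.

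Lymphocyte lists had no member called higher, with 3 of 14 T and NK cell genes lower (Cd4, Cd3e and Gzmb, -0.60 to -0.78) and 1 of 9 B cell genes lower (Vpreb3, -1.04), against 14.1% of all genes. Under either spike covariate no member of the 2 lists was called. The mean level of the T and NK list was 3.54 to 3.79 in the controls and 3.28 to 3.46 at 4 days. Sinusoidal endothelial genes had 5 of 17 called higher and none lower (29.4% called, against 32.8% of all genes). They were led by the hyaluronan receptor Lyve1 (1.89 ± 0.61). The count higher was 3 without 4-day replicate 1 or 3, control replicate 1 or 5, or the 7 doubted arrays. It was 2 and 0 with the poly-A and hybridization covariates. Of 15 erythroid genes 2 were called higher and 4 lower, with a median of -0.18, against 18.8% and 14.1% of all genes. The count higher was 1 without 4-day replicate 1, 2 or 4 or control replicate 1, 2, 3 or 5. With either spike covariate 1 was called lower and none higher. Alas2, the haem synthesis enzyme of red cell precursors, was among the lower genes (-1.48 ± 0.44).

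Few genes of secreted hepatocyte proteins were called. Of 27 plasma protein genes 4 were called higher (14.8%, against 18.8% of all genes) and none lower (against 14.1%), with a median of -0.02. The count higher was 2 without 4-day replicate 1 or control replicate 1 or 2, and 3 and 1 with the poly-A and hybridization covariates. Quantile normalization gave 1 higher and 3 lower. Fetuin (Ahsg) was 12.17 to 12.57 in the controls and 13.04 to 13.20 at 4 days, a small rise with little spread (0.64 ± 0.08, adjusted p = 2.1e-07). Alb changed by 0.15 ± 0.07 (adjusted p = 0.087), and by 0.00 after quantile normalization. Whether such bright probe sets were near saturation was not tested. The list's mean level was 11.98 to 12.13 in the controls and 12.11 to 12.20 at 4 days.

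Of 18 transcription factors of the hepatocyte 3 were called higher and 4 lower, close to the 18.8% and 14.1% of all genes, and 2 were lower without 4-day replicate 4 or control replicate 4. With the poly-A covariate 2 were called higher and 1 lower, and with the hybridization covariate none. Cebpa, which restrains division and supports metabolic genes, was 9.59 to 10.24 in the controls and 8.91, 8.61, 9.32 and 8.22 at 4 days, a change of -1.26 ± 0.37 (adjusted p = 0.0073) that became 0.10 with the poly-A covariate. Cebpd, induced in the acute phase, was 4.89, 6.21, 5.00, 6.30 and 5.52 in the controls and 7.04, 7.49, 6.36 and 9.19 at 4 days (1.94 ± 0.43), highest in replicate 4. Hnf4a changed by 0.06 and was not called by its brightest probe set, while 1 of its 4 sets was called higher (1.17).

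Cholesterol synthesis genes had 9 of 20 called higher and none lower, with a median of 0.71, 5 without 4-day replicate 1 or replicate 4, and 3 and 0 with the poly-A and hybridization covariates. Cyp51, lanosterol demethylase, was 8.58 to 9.23 in the controls and 9.96 to 10.53 at 4 days (1.32 ± 0.23), and the kinase Pmvk rose by 1.31 ± 0.35. In fatty acid and triglyceride synthesis 1 of 22 was called higher and 3 lower, against 18.8% and 14.1% of all genes. Median centring left 1 lower and quantile normalization gave 5 lower, and the count lower was 0 and 1 with the poly-A and hybridization covariates. Mlxipl, the glucose-sensing factor ChREBP, was lower (-1.33 ± 0.35). Its target pyruvate kinase (Pklr) changed by -1.64 ± 0.38, while Fasn changed by -0.72 ± 0.53 and was not called.

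Fatty acid oxidation and PPAR-alpha targets had 8 of 23 called higher and none lower (34.8% called, against 32.8% of all genes), with a median of 0.39. The count higher was 5 without control replicate 1, and 4 and 0 with the poly-A and hybridization covariates. Cyp4a14, a PPAR-alpha target, was 6.18, 7.77, 8.20, 8.71 and 8.28 in the controls and 11.53, 10.46, 11.47 and 11.65 at 4 days, a rise of 3.45 ± 0.78. Among drug-metabolising P450 genes 5 of 21 were called higher and 4 lower, 7 lower without the 7 doubted arrays, and 1 and 0 higher and none lower with the poly-A and hybridization covariates. Cyp2b10, a target of the receptor CAR, was 3.46, 5.11, 3.55, 4.43 and 3.86 in the controls and 6.34, 9.47, 6.16 and 7.13 at 4 days (3.19 ± 0.75), and Cyp2e1 changed by -0.37 ± 0.17 and was not called. Cyp7a1, the enzyme that limits the rate at which bile acids are made, was 9.44 to 10.55 in the controls and 12.03, 10.05, 11.66 and 9.83 at 4 days, with overlap and no call (0.93 ± 1.04, adjusted p = 0.52).

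Other genes with large separated changes were not assigned to these roles here. Slc16a5, a monocarboxylate transporter, was 3.43 to 4.82 in the controls and 8.41, 7.77, 7.12 and 7.20 at 4 days (3.73 ± 0.34, adjusted p = 1.3e-10). Serpina12, the secreted serpin vaspin, was 9.12 to 9.76 in the controls and 5.31 to 6.52 at 4 days (-3.68 ± 0.50), and Serpina4-ps1, a serpin pseudogene that may share probes with related serpins, was 8.52 to 10.91 and 3.59 to 6.41 (-4.90 ± 0.58). D17H6S56E-5, a transcribed locus without a function given here, rose by 4.10 ± 0.68. Hectd2os, Sult2a8 and Col27a1 complete the 12 lowest separated genes, with changes of -3.28, -2.56 and -2.01. The call of Sult2a8 ended without 4-day replicate 2 (-1.66).

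Immediate early genes, which respond within minutes to growth signals, were split at this late time. Of 24 members 6 were called higher and 8 lower, with a median of -0.33, and 3 higher without 4-day replicate 4. With the poly-A covariate 1 was called higher and 4 lower, and with the hybridization covariate 1 and 1. Nr4a1, an orphan nuclear receptor, was 8.96, 7.04, 7.18, 6.99 and 6.29 in the controls and 5.03, 5.00, 5.08 and 6.23 at 4 days, a change of -1.96 ± 0.59 that was not called without control replicate 1. The phosphatase Dusp1 was 8.82 to 10.21 in the controls and 7.90 to 8.30 at 4 days (-1.54 ± 0.37). Ier3 was 3.37 to 4.11 in the controls and 4.96, 6.34, 4.73 and 8.76 at 4 days, and its rise of 2.44 ± 0.71 was not called without replicate 4.

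Of 27 subunits of the proteasome, which degrades tagged proteins, 16 were called higher and 2 lower, with a median of 0.36. Psma1 at 0.85 was the largest (its other probe sets, at -0.14 to -0.03, were not called). Quantile normalization gave 7 higher and 3 lower, and the poly-A and hybridization covariates 1 and 0 higher. Among 23 cytosolic ribosomal proteins 11 were called higher and 1 lower, 7 higher without control replicate 1 or under quantile normalization. Ribosome biogenesis factors had 7 of 26 called higher and 1 lower (30.8% called, against 32.8% of all genes). The calls were 3 higher without 4-day replicate 2 or control replicate 1, and 2 higher and 3 lower under quantile normalization. No member of either ribosome list was called with either spike covariate.

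The position of 4 days within the time course was tested against the neighbouring times, comparisons that share no control array. Against 3 days no gene was called in limma, with 895 at an unadjusted p under 0.05 (4.92%). Mitotic genes had a median of -1.30 in that comparison, and no member was called. The mean level of the mitosis list was 5.45, 7.16, 5.53 and 4.62 in the 4-day arrays and 7.04, 4.94, 7.57 and 7.88 in the 3-day arrays, where replicate 2 was the lowest array. Without that array 71 genes were called, 15 of the 35 mitotic genes among them and all 15 lower at 4 days, and with weights for array quality 464 were called, with 29 mitotic genes lower.

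Against 48 hours 181 genes were called (0.995%), 64 higher at 4 days (0.352%) and 117 lower (0.643%). The spike controls separated these groups as well. Hybridization controls read 10.27 to 10.45 at 48 hours and 9.70 to 9.93 at 4 days. Poly-A controls read 6.32 to 6.91 and 4.61 to 5.03. With the poly-A covariate 118 genes were called, 60 of them among the 181. With the hybridization covariate 501 were called, 130 of them among the 181. The part of these controls in the changes cannot be told apart. Lower genes included those of division. Hmmr, a spindle-associated hyaluronan receptor, was 6.46 to 8.69 at 48 hours and 5.71, 7.12, 5.71 and 4.53 at 4 days, a change of -1.95 (adjusted p = 0.046). The kinase Aurkb changed by -1.85 and the helicase subunit Mcm7 by -1.78, and 3 mitotic and 3 replication genes in all were called lower, with medians of -1.62 and -1.38 for the lists. The count of 181 is not firm, because it ranged from 20 without 48-hour replicate 3 to 372 without 48-hour replicate 4, and was 61 and 27 without replicates 1 and 2, 108 and 93 without 4-day replicates 1 and 4, and 633 without the 7 doubted arrays.

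Reg3b, an antimicrobial lectin induced in injured epithelium, had the largest fall, from 4.06 to 8.58 at 48 hours to 2.16 to 2.55 at 4 days (-4.17, adjusted p = 0.031), beside 2.20 to 2.67 in the controls. Scd2 was 4.47 to 5.64 at 48 hours and 6.66 to 9.08 at 4 days, a rise of 2.88 (adjusted p = 0.0021). Spink1 rose by 2.29 (adjusted p = 0.00021) and Lpl by 2.23 (adjusted p = 0.018), so these 3 genes were higher at 4 days than at 48 hours while Hmmr, Aurkb and Mcm7 were lower. Lyz2 rose by 2.06 and Col4a1 by 1.19. Ces2a, a carboxylesterase of adult liver, was 8.45 to 9.68 at 48 hours and 9.88 to 11.27 at 4 days (1.42, adjusted p = 0.012), and at 4 days it was not called against control (-0.64, adjusted p = 0.075).

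Against 1 week 4 genes were called (0.022%), with 1573 at an unadjusted p under 0.05 (8.65%). Ppm1g, a protein phosphatase, was 6.04 to 6.18 at 4 days and 6.79 to 7.19 at 1 week (-0.89), and Ring1, a Polycomb subunit, was 5.57 to 5.74 and 6.06 to 6.49 (-0.72). Gas7 (1.14) and Fam25c (1.48) were higher at 4 days. No call was left without 4-day replicate 2, 1 was left without 1-week replicate 1, 2 without 1-week replicate 2 or 4-day replicate 1, and 10 were made without 1-week replicate 4.

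**Figure D5:**
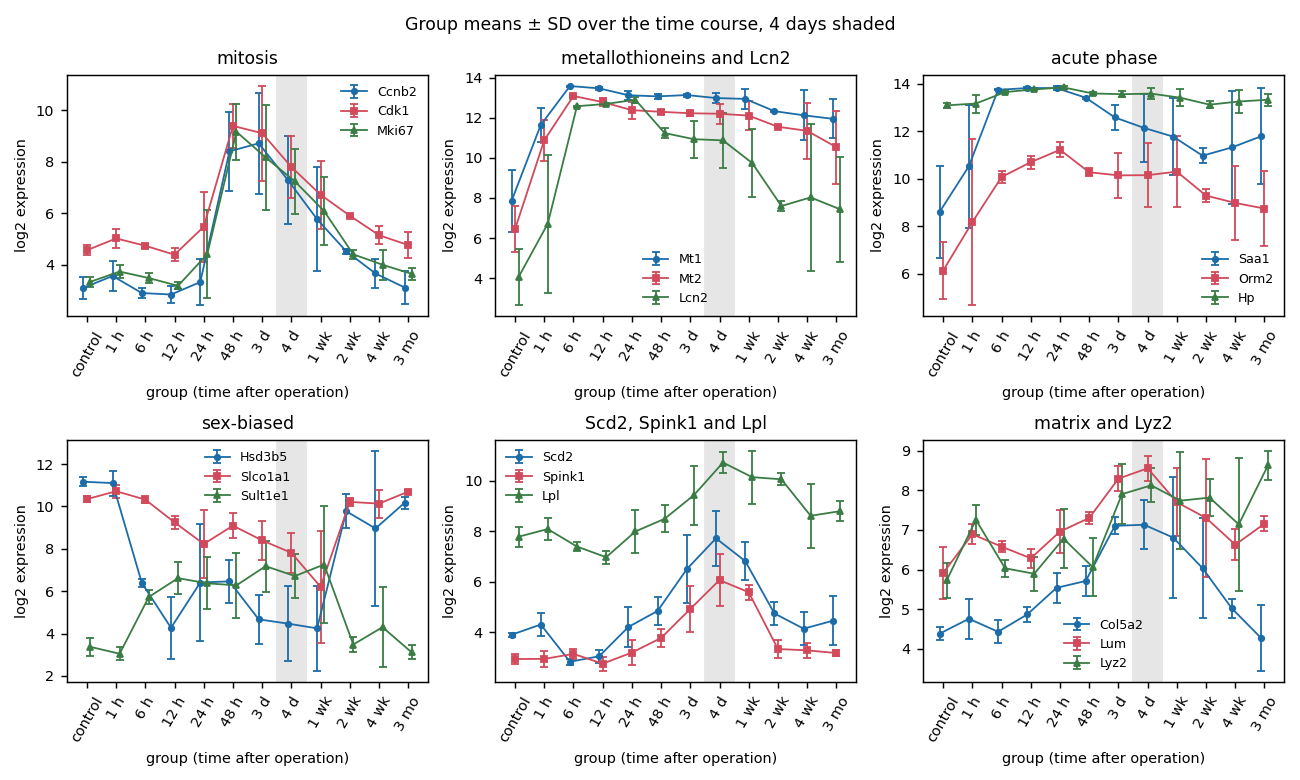
Group means ± SD of log2 expression for 18 genes over the 12 groups, with the 4-day group shaded (n = 2 to 11 arrays per group). Ccnb2, Cdk1 and Mki67 peak at 48 hours or 3 days, Scd2, Spink1 and Lpl have their highest mean at 4 days, and Hsd3b5 is still near its minimum.

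At 4 days the means of Scd2, Spink1 and Lpl were the highest of the 12 groups (7.72 ± 1.08, 6.07 ± 1.04 and 10.72 ± 0.42, SD, n = 4), but 3 days and 1 week did not differ from them beyond the threshold. Mean Hsd3b5 was 4.67 ± 1.14 at 3 days, 4.47 ± 1.76 at 4 days and 4.24 ± 1.99 at 1 week, which do not differ beyond their spread. Mean Mki67 was 9.17 ± 1.09 at 48 hours, 8.17 ± 2.05 at 3 days, 7.24 ± 1.26 at 4 days and 6.09 ± 1.33 at 1 week, and 4 days was not called apart from any of the other 3 times.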

How the data were processed

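The deposited log2 expression values of 45101 probe sets were made by the authors with RMA in oligo 1.52.0, according to the submitters' processing notes. RMA includes a step that equalizes array distributions, which can hide a change common to most genes. Yet array medians over all probe sets were 4.01 to 4.10 in the controls and 3.89 to 3.97 at 4 days, without overlap. It is not stated whether the 52 arrays were normalized jointly. The labels' protocols describe TRIzol extraction and labelling primed with oligo dT. Precision is limited by the number of arrays.

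The platform annotation gave 1 gene for 34958 probe sets, several for 932 and none for 9211, and 64 were controls; only the first kind was named. Of 18194 genes 18033 matched RefSeq (GRCm38.p6) and 161 kept the annotation symbol. The probe set with the highest mean represented each of the 9011 genes with several. Levels of different genes were not compared.

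Group means of the 52 arrays were fitted together with limma 3.58.1 in R 4.3.3 (lmFit, then eBayes). Tests were two-sided, with Benjamini-Hochberg adjustment over all genes of a contrast, and SE is the moderated standard error. The procedure was run on simulated data with independent normal noise, the same spread in every group, and known changes added to the 4-day arrays. The simulation held no shift in spike controls or scaling between groups and no unlike 4-day arrays. It therefore cannot show how the calls behave under these features. Genes were named by a rule: index genes, the 12 highest and 12 lowest called genes whose groups do not overlap, and for each of 48 lists the called members with the largest changes. From what the rule gave, genes for the text were picked after their values were seen, with some other list members as examples. The members and lists were chosen with earlier results of these data known, including the 7 arrays doubted in that work. There were 16 kinds of alternative; the closing section gives their effect. Python 3.11.15, pandas 2.3.3 and matplotlib 3.10.9 made tables and plots.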

Additional observations from a re-analysis of the deposited data

Results flagged for a closer look

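For 25 of 302 gene and group combinations checked, 1 array lay far from the others of its group (Dixon's test at the 95% level). Chance marks about 1 in 20 of unselected, independent combinations. These genes were picked after their values were seen and share the same arrays, so the 2 shares cannot be compared. Values are log2 levels of the marked array against the range of the other arrays of its group. In 4-day replicate 1 these were Tff3 9.25 against 7.81 to 8.01 and Lpl 10.10 against 10.87 to 10.96. In 4-day replicate 2 these were Hamp 10.48 against 11.59 to 11.77, Slco1a1 6.39 against 8.15 to 8.37, Prom1 9.74 against 4.80 to 5.64, Anxa2 10.12 against 7.81 to 8.05, Elane 4.53 against 4.90 to 4.94, Cyp4a14 10.46 against 11.47 to 11.65, Glul 9.91 against 10.83 to 10.90 and D17H6S56E-5 10.89 against 7.80 to 8.23. In 4-day replicate 3 these were Ugt2b38 6.24 against 3.99 to 4.23, Myc 6.02 against 6.65 to 6.75 and Nudt7 12.31 against 10.95 to 11.18. In 4-day replicate 4 these were Nr4a1 6.23 against 5.00 to 5.08 and Il6 3.54 against 1.61 to 1.92. In control replicate 1 these were Pcna 6.98 against 7.67 to 7.94 and Ahsg 12.17 against 12.46 to 12.57. In control replicate 2 these were Saa1 11.97 against 7.14 to 8.44, Apcs 10.69 against 9.91 to 10.11 and Tfdp1 6.65 against 6.49 to 6.54. In control replicate 4 this was Afp 3.94 against 2.83 to 3.12. In control replicate 5 these were Elovl3 9.02 against 11.07 to 11.36, Acot3 5.26 against 4.53 to 4.74, Gpc3 3.51 against 3.23 to 3.26 and Sox9 4.25 against 5.05 to 5.32. No explanation of these values was tested.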

How the results depend on the processing

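Of the 5974 genes called against control, the alternatives left between 4362 and 5869 among their calls, apart from the settings named next and the single arrays left out. Calls numbered 3468 (2208 higher, 1260 lower) at an adjusted p under 0.01, 1097 (966 and 131) at 2-fold or more, 123 (65 and 58) with hybridization controls as a covariate, 1078 (726 and 352) with poly-A controls, and 10530 (5691 and 4839) over every probe set. Lower calls numbered 1276 without dim genes and 1493 after median centring. Single arrays left out gave 4034 to 5855 calls, 2397 to 3421 higher and 1637 to 2448 lower. Against 3 days 464 genes were called with array weights, 1 with the poly-A covariate, 4 without the 7 doubted arrays, and 0 to 71 with 1 array left out. Against 48 hours 21 were called at 0.01, 721 with array weights, 77 at 2-fold, 65 with the 2 groups alone, 501 and 118 with the hybridization and poly-A covariates, 309 with the mean of probe sets, 535 over every probe set, 633 without doubted arrays, and 20 to 372 with 1 array left out. Against 1 week these were 2, 328, 2, 0, 4, 12, 4, 8, 67 and 0 to 10, with 13 for the Gapdh covariate and 2 after median centring. Replicate numbers did not pair the arrays (same-number correlations -0.08 to 0.11 against control, and no array matched its own number best there); the replicate block gave 5511 calls against control, 1 against 3 days, 204 against 48 hours and 7 against 1 week. Among named genes the sign turned for Tpx2 (0.32) and Fen1 (0.14) with the mean of probe sets, Ccr2 (0.010) and Cdk4 (-0.22) with the hybridization covariate, and Cebpa (0.10) and Lgr5 (0.081) with the poly-A covariate. Some genes called by their brightest probe set had other sets that were not called. Among them were Nid1 (-0.06 and 0.43), Cxcl14 (0.11), Cebpd (-0.08), Hsd17b13 (0.09), Marco (0.27), Scara5 (-0.30) and Cd4 (0.17). The causes were not tested. Levels near 3 to 4 on the log2 scale are close to the floor of the arrays, where changes are uncertain.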

Other observations

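Some gene groups outside the main account were also measured. Among 25 chemokines and cytokines 5 were called higher and 1 lower (24% called, against 32.8% of all genes). The count higher was 2 without 4-day replicate 2, 3 without control replicate 1 or 4, and 2 and 0 with the poly-A and hybridization covariates. Cxcl14, a chemokine of epithelia, was 2.83 to 3.45 in the controls and 5.50, 8.15, 5.68 and 7.08 at 4 days (3.39 ± 0.78), and Ccl6, a chemokine of macrophages, rose by 2.77 ± 0.49. Il6 (0.35) and Tnf (0.10) were not called. Interferon-stimulated genes had 4 of 20 called higher and 1 lower (25% called, against 32.8% of all genes). The count higher was 1 without 4-day replicate 2, 2 without control replicate 1, and 4 and 0 with the poly-A and hybridization covariates.

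The ferritin receptor Scara5 was 4.69, 6.96, 4.51, 5.73 and 5.53 in the controls and 8.26, 8.42, 8.77 and 9.82 at 4 days (3.33 ± 0.65). Vegfa, the vascular growth factor, was 7.44 to 8.33 in the controls and 6.40, 6.28, 7.35 and 7.15 at 4 days, a change of -0.98 ± 0.18 (adjusted p = 7.4e-05). Hgf, the main hepatocyte growth factor, changed by 0.44 and its receptor Met by 0.64, of which Met was called.

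Among pericentral genes, which depend on Wnt signals around the central vein, 2 of 18 were called higher and 3 lower, against 18.8% and 14.1% of all genes. The lower count was 0 without 4-day replicate 2 and 6 without the 7 doubted arrays, and no member was called with either spike covariate. The Wnt receptor partner Lgr5 changed by -1.24 ± 0.39 and Axin2 by -0.68 ± 0.22, both not called without 4-day replicate 2, and glutamine synthetase (Glul) by -0.64 ± 0.36, which was not called. Periportal genes had 5 of 14 called higher and none lower (35.7% called, against 32.8% of all genes). The count higher was 3 without 4-day replicate 3, and 4 and 0 with the poly-A and hybridization covariates. Hsd17b13, a lipid droplet enzyme, led the named members with a rise of 1.46 ± 0.22.

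Biliary and progenitor markers had 4 of 13 called higher and 1 lower (38.5% called, against 32.8% of all genes). The count higher was 1 without 4-day replicate 2, and none were called with either spike covariate. Their mean level was 5.16 in 4-day replicate 2 and 4.12 to 4.32 in the other 4-day arrays, against 3.99 to 4.10 in the controls. The bile duct keratin Krt19 changed by 0.35 and Sox9 by 0.26, and neither was called.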
